A study of Mus musculus with 6 samples.

Results

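Imprinted genes are genes that a cell reads from the copy of 1 parent while the copy of the other parent is silent. They were followed here in RNA of mouse endothelial cells that lacked or carried vascular endothelial cadherin (VEC). The members were a list of 39 known mouse imprinted genes, matched by symbol to the Ensembl identifiers of a gene table with 24080 rows, and 35 of them had a row. *H19*, *Ascl2*, *Zim1* and *Magel2* were not analysed here. By background knowledge, 18 listed genes are expressed from the maternal copy, 20 from the paternal copy, and *Gnas* switches parent by isoform. Gene counts carry no information on the allele, so every value below is the sum of both copies.

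Imprints are set as DNA methylation in the germ line and are kept through cell division by the maintenance methyltransferase DNMT1 and by zinc finger proteins such as ZFP57, which recognise a methylated motif. They lie in clusters, where a methylated control region often holds the promoter of a noncoding RNA that silences its neighbours in cis, or governs the access of enhancers. Many imprinted genes act on fetal and placental growth.

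VEC-null cells were endothelial cells obtained by differentiating mouse embryonic stem cells with both copies of the VEC gene inactivated. VEC-positive cells were made from that line by retroviral transfer of wild-type VEC, so they carry the same null alleles plus the transferred cDNA. A stranded kit was used on total RNA, with 3 libraries of VEC-positive and 3 of VEC-null cells, called biological replicates in the study. The comparison asked how gene expression differs once VEC is present. Because 1 line was compared with its own derivative, the p-values measure the spread between libraries of these cultures. An effect of VEC and other differences between the lines cannot be told apart. In bulk RNA, fewer cells of a type and less RNA per cell cannot be told apart either.

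Total reads were 6036155 to 14136376 per library. *Cdh5*, which encodes VEC, ran against the labels, with 794.3, 739.4 and 749.7 normalized counts in libraries labelled VEC-positive and 1334, 1439 and 1689 in libraries labelled VEC-null (log2 fold change -0.96, standard error 0.098). A gene count does not tell transferred from endogenous sequence, and all directions below are by label. Whether the labels were exchanged, which would turn every direction, was not tested. The library VEC-null 3 stood apart from its group, as shown by the chi-square of recovered reads divided by the number of genes: it was 50.4 and 48.9 against the other VEC-null libraries, 6.58 between those, and 11.9 to 19.9 between VEC-positive libraries. Mitochondrial genes took 17.97% to 24.2% of reads in VEC-positive and 9.62% to 14.9% in VEC-null libraries. With library totals set equal, the median log2 fold change of all tested genes was -0.32, and -0.16 with mitochondrial genes left out of the totals. The part of the mitochondrial difference in the calls of single genes was not tested. Summed endothelial markers were 67810 to 69782 in VEC-positive and 49249 to 51730 in VEC-null libraries, with 12 of 13 markers in the table and none at 0. Pluripotency markers, of which 5 of 10 had a row, summed to 890 to 961 in VEC-positive and 125 to 142 in VEC-null libraries. Nearly all of this was *Klf4*, while *Pou5f1*, *Esrrb* and *Tdgf1* stayed under 5 in every library. *Nanog* was highest at 10.5 in VEC-positive 3 and 9.18 in VEC-null 1 and lay below the filter for testing.

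Imprinted genes differed between the 2 lines in both directions, and most that passed the test were lower in VEC-positive cells. Values are normalized counts, which are read counts divided by 1 size factor per library, and fold changes are VEC-positive over VEC-null on log2(normalized count + 1). Of the 35 genes, 25 reached a normalized count of 10 in at least 3 libraries and were tested, and 10 lay below this filter. Of the 25, *Zrsr1*, *H13* and *Gnas* were higher and *Mest*, *Igf2*, *Ndn*, *Peg10*, *Cdkn1c*, *Plagl1*, *Snrpn*, *Peg3* and *Grb10* were lower (limma, adjusted p under 0.05 over 14032 genes). That is 12 of 25 genes, where 37.3% of all tested genes passed. The 9 lower genes stand beside 16.4% of all tested genes lower, and the 3 higher genes beside 20.9% higher. *Mest* entered the test only through VEC-null libraries and so had to differ. Without it, 11 of 24 genes passed, 3 higher and 8 lower. The median log2 fold change was -0.19 over the 25 genes and -0.18 without *Mest*, beside -0.01 over all tested genes. At 2-fold or more, 2 members were higher and 5 lower, where 6.88% and 6.99% of all tested genes were.

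Of 3 other scalings, that to equal library totals moved these counts most. With library totals set equal in place of the authors' size factors, the median of all genes became -0.32 and that of the imprinted genes -0.50. Rescaling moves all genes of a library alike, so the distance of the members from the median of all genes, -0.18, is nearly fixed by construction. Of the members, 9 lay above that median and 16 below it. At equal totals 2 members were higher and 14 lower, where 46.5% of all genes passed, 1566 higher and 4960 lower in place of 2927 and 2304. Of the 12 genes that passed, only *Gnas* lost its call under this scaling. With mitochondrial genes left out of the equal totals, 3 members were higher and 10 lower, beside 2051 and 3166 of all tested genes. TMM factors, from trimmed means of log ratios, gave 3 members higher and 9 lower. Over all tested genes they gave 2845 higher and 2429 lower. On recovered reads, edgeR called 12 members, where 37.7% of all genes passed, and DESeq2 called 11 (3 higher and 8 lower), where 34.4% passed, 18.8% higher and 15.6% lower.

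**Figure D1:**
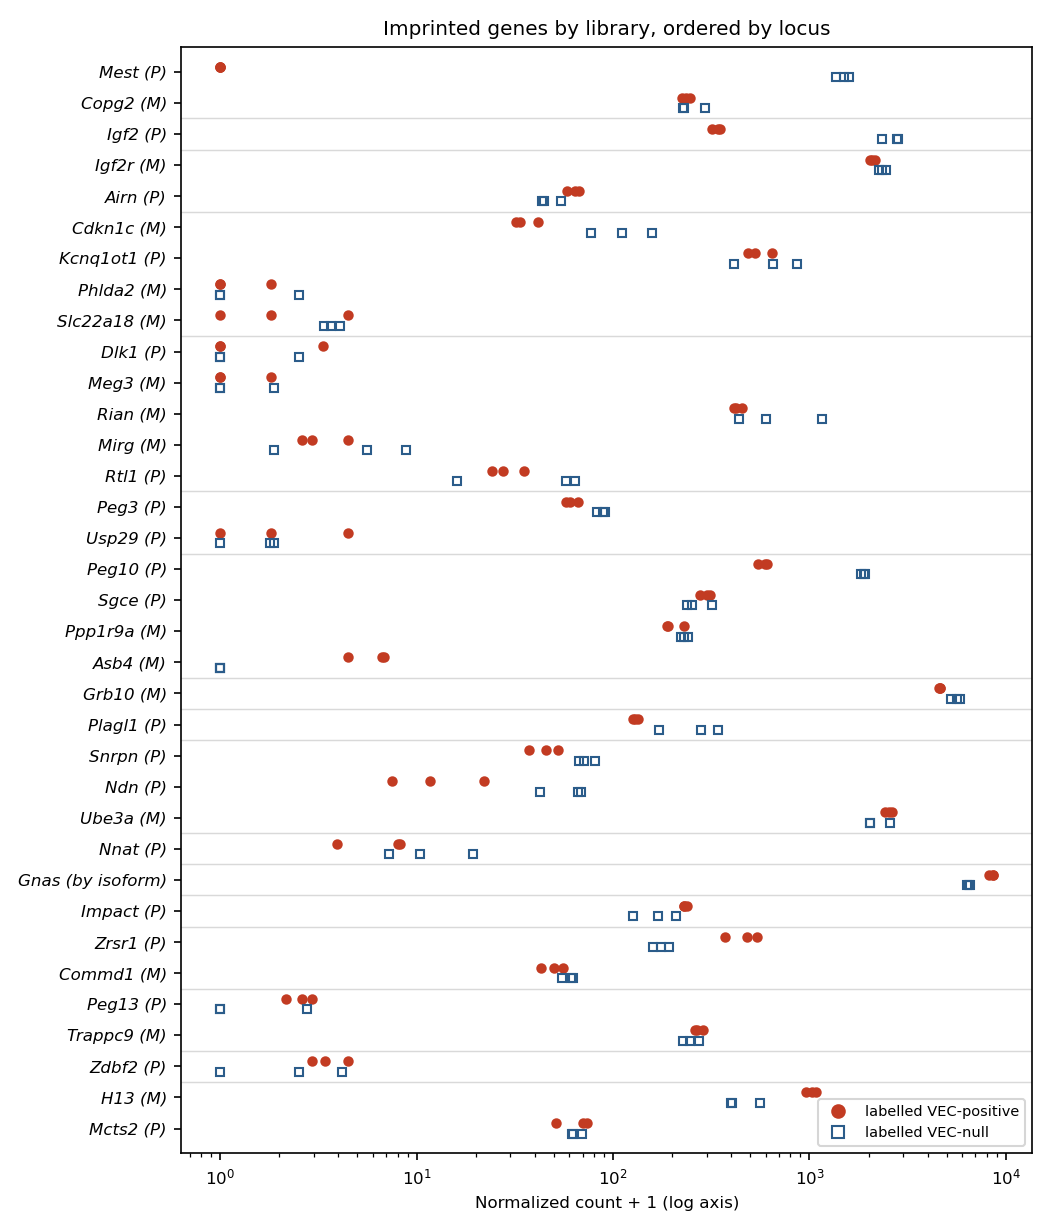
Normalized count plus 1 on a log axis for the 35 imprinted genes with a row, ordered by locus, with the expressed parental copy as M or P; circles are the 3 libraries labelled VEC-positive and squares the 3 labelled VEC-null. *Mest* lies at 0 in every VEC-positive library and between 1358 and 1595 in VEC-null libraries.

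The promoters below are shown because they form 3 pairs of genes that share an imprinted locus and gave different readouts: *Mest* and *Copg2* on chromosome 6, *H13* and *Mcts2* on chromosome 2, and *Zrsr1* and *Commd1* on chromosome 11. In each pair the paternally expressed partner (*Mest*, *Mcts2*, *Zrsr1*) starts in the germline methylated region of the locus. The windows are from RefSeq on GRCm38.p6, the assembly of mm10, run 5′ to 3′ on the strand of the gene, and reach from 250 bases before the start to 50 bases after it. Capitals mark CG, the dinucleotide that carries the methylation. Positions are chr6:30737800-30738099 on the plus strand for *Mest*, chr6:30896745-30897044 on the minus strand for *Copg2*, chr2:152669211-152669510 and chr2:152686898-152687197 on the plus strand for *H13* and *Mcts2*, chr11:22971755-22972054 on the plus strand for *Zrsr1*, and chr11:22982235-22982534 on the minus strand for *Commd1*.
*Mest*: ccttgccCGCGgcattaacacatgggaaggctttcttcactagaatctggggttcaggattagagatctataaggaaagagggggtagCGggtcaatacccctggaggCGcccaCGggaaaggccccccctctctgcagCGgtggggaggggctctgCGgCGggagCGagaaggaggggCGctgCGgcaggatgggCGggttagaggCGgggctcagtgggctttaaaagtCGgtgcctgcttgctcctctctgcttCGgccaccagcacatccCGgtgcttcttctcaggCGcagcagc
*Copg2*: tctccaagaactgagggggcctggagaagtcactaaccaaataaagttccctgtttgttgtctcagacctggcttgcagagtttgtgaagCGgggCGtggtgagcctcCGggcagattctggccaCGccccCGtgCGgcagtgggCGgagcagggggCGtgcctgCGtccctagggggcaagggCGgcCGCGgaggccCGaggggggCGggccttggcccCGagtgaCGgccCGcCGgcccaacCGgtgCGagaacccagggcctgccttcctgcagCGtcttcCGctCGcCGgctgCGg
*H13*: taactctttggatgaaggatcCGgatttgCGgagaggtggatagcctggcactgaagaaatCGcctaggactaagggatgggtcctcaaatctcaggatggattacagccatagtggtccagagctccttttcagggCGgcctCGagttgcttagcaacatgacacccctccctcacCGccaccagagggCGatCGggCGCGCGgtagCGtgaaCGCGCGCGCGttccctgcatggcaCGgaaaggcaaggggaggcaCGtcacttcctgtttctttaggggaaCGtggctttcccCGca
*Mcts2*: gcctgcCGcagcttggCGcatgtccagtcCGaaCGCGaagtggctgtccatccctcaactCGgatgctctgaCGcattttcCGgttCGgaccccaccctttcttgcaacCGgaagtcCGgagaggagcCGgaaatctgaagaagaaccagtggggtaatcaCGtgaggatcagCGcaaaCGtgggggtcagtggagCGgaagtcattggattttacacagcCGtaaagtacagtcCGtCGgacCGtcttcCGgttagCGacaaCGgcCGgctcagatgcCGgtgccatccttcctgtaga
*Zrsr1*: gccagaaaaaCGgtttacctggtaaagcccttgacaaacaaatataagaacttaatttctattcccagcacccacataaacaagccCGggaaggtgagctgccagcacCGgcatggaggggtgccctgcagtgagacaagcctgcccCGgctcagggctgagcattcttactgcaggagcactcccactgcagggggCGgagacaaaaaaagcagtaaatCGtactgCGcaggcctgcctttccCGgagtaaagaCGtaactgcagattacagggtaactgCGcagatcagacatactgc
*Commd1*: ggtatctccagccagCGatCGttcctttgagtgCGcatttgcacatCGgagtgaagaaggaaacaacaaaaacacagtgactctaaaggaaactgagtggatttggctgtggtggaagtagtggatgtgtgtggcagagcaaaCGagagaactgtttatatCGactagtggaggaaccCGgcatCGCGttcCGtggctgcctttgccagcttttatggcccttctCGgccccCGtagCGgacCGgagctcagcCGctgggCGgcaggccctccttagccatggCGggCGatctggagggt
These windows held 17 CG in *Mest*, 25 in *Copg2*, 21 in *H13*, 25 in *Mcts2*, 10 in *Zrsr1* and 18 in *Commd1*. The hexamer TGCCGC, the motif of ZFP57, was searched on both strands. It occurred 2 times in the *Mest* window and 1 time each in *Copg2*, *Mcts2* and *Commd1*. RefSeq gave 3 windows for *Mest* and 2 for *Commd1*, of which 1 each is shown. Of the other *Mest* windows, that from chr6:30733256 held 8 CG and 0 hexamers, and that from chr6:30737803 held 17 and 2. The other *Commd1* window held 17 CG and 0 hexamers. RefSeq gave 48 windows for 31 of the 39 listed genes, and 27.1% of these held the hexamer, beside 11.6% of all 32851 windows of that length and 19.1% of the windows of tested genes. The median number of CG was 14.5 per member window, 7 over all windows and 21 over windows of tested genes. No methylation was measured in these cells.

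At the *Mest* locus, *Mest* and a gene beside it were without reads in VEC-positive cells, while the overlapping *Copg2* did not pass. *Mest* (ENSMUSG00000051855, chr6:30723547-30748465 of mm10) encodes an alpha/beta hydrolase of mesoderm. It had no read in the 3 VEC-positive libraries, against 1495, 1358 and 1595 normalized counts in VEC-null libraries, from 4500 reads. VEC-null 3 was the highest of the VEC-null libraries here. *Cep41*, which encodes a centrosomal protein and starts 29.8 kb before *Mest*, was named after its values were seen. It followed the same pattern, with no read in VEC-positive libraries against 68.9, 67.7 and 64.7 normalized counts in VEC-null libraries. The 204 reads of *Cep41* put it at least 69.6-fold lower in VEC-positive cells, with a floor of 3 reads over the group. *Copg2*, a coat protein of COPI vesicles whose last exons overlap *Mest* by 912 bases on the opposite strand, had 233, 224 and 245 normalized counts in VEC-positive and 228, 227 and 294 in VEC-null libraries (log2 fold change -0.08, adjusted p = 0.64 from limma). The groups overlapped. *Tmem209*, farther on the side of *Cep41*, fell by 0.50 on the log2 scale (adjusted p = 0.00853 from limma). The 3 tested genes beyond *Copg2* did not pass.

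**Figure D2:**
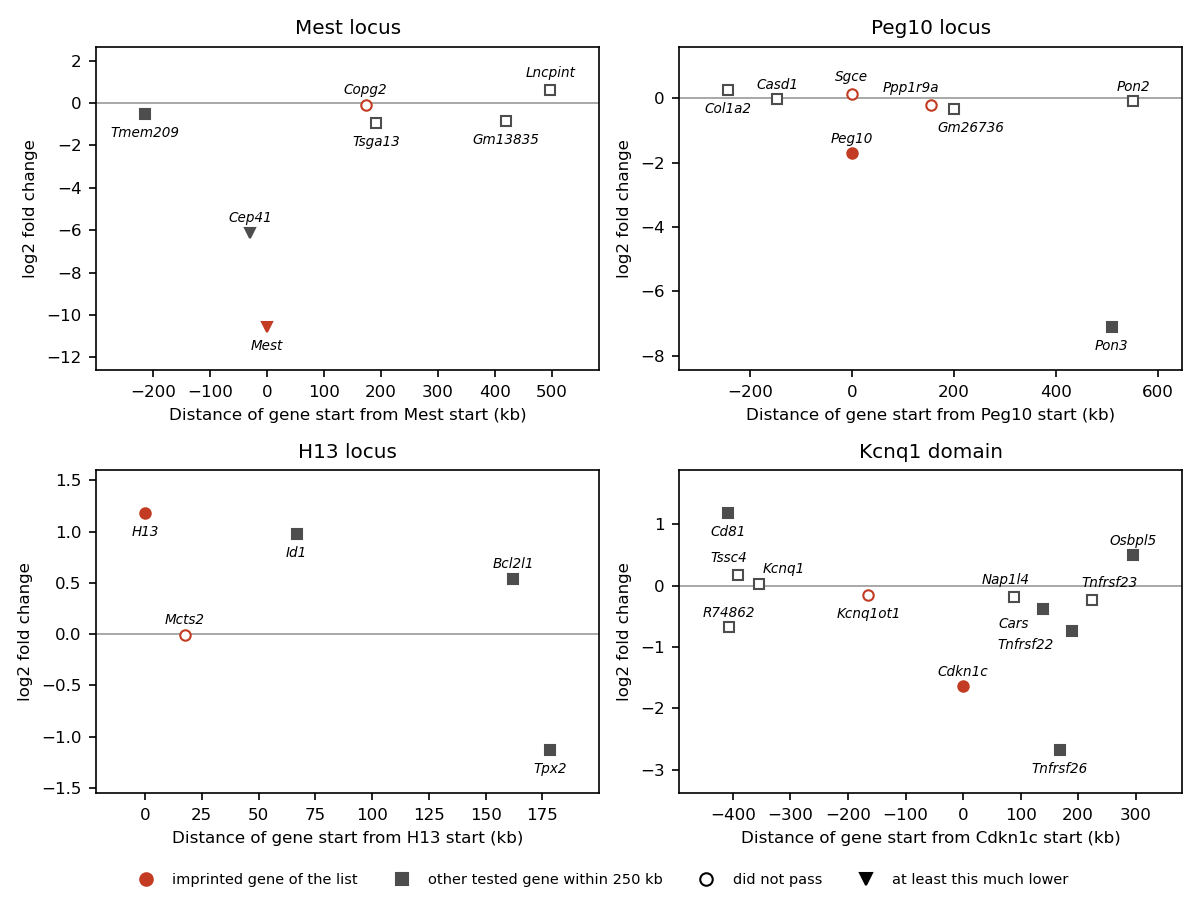
Fold change (log2, VEC-positive over VEC-null) against the distance of each gene start (kb) at 4 imprinted loci; circles are imprinted genes of the list, squares other tested genes within 250 kb, open symbols did not pass, and triangles are bounds for genes without a read in VEC-positive libraries. *Mest* and *Cep41* lie side by side at the bottom of their locus, and *Pon3*, plotted at its fitted value, lies at the bottom of the *Peg10* locus.

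The growth factor *Igf2* fell strongly, while *Igf2r*, which clears it, did not pass and *Grb10* changed by less. *Igf2* (chr7:142650766-142666816), a fetal growth factor read from the paternal copy, had 319.6, 349.7 and 343 normalized counts in VEC-positive libraries, against 2831, 2780 and 2329 in VEC-null libraries. The ranges lie far apart in every library. Its log2 fold change was -2.96 (standard error 0.095, adjusted p = 6.55e-07 from limma), 7.80-fold lower. In the annotation, 62.8% of its exon bases are shared with *Gm49394* on the same strand, so reads of the pair cannot be told apart. *H19*, the maternal partner of this locus, was not analysed here.

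*Igf2r* encodes the receptor that clears IGF2 and sorts lysosomal enzymes. It had 2080, 2024 and 2160 normalized counts in VEC-positive and 2339, 2251 and 2440 in VEC-null libraries. The groups did not overlap, as for 15 of the 25 members and 50% of all tested genes, and the change did not pass (log2 fold change -0.17, adjusted p = 0.0942 from limma). It passed as lower at equal totals with and without mitochondrial genes, at -0.31 without them (adjusted p = 0.015 from limma) and -0.48 with them (adjusted p = 0.00126), and adjusted p ran from 0.00126 to 0.273 over 17 alternatives. *Airn*, the antisense noncoding RNA that silences *Igf2r* in cis, ran the other way without passing, with 57.2, 66.2 and 62.9 in VEC-positive and 53.6, 43.3 and 42.6 in VEC-null libraries (log2 fold change 0.42, adjusted p = 0.116 from limma).

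*Grb10*, an adaptor that dampens insulin and IGF receptor signalling, was among the most abundant members, at 505 per kb of exon in VEC-positive and 614 in VEC-null cells. Its normalized counts were 4593, 4553 and 4625 in VEC-positive libraries, against 5638, 5251 and 5852 in VEC-null libraries. The groups did not overlap, and it was 1.21-fold lower (log2 fold change -0.28, adjusted p = 0.0175 from limma). This call was lost in 4 of 17 alternatives, with adjusted p from 0.000489 to 0.0743 over them. At equal totals *Grb10* was at -0.59.

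Among the partners of IGF2 outside the list, 6 of 9 tested genes passed, 4 higher and 2 lower, where 37.3% of all tested genes passed. *Igf1r*, *Irs1* and *Igf2bp1* entered the test only through VEC-positive libraries and so had to differ. Without them 3 of 6 passed, 1 higher and 2 lower. *Igf1*, the postnatal growth factor that shares the IGF1 receptor, was higher at 24220, 23063 and 23581 normalized counts in VEC-positive libraries, against 6693, 6704 and 6519 in VEC-null libraries (log2 fold change 1.83, adjusted p = 1.97e-06 from limma). Thus in the same libraries *Igf1* was higher and *Igf2* lower in VEC-positive cells. *Igf2bp3*, an RNA-binding protein named for its binding to *Igf2* mRNA, fell by 2.58 on the log2 scale, with means of 20.9 in VEC-positive and 130.1 in VEC-null cells. The insulin receptor *Insr* fell by 0.51. *Igf1r*, *Irs1* and *Igf2bp1*, named after their values were seen, were higher at low counts, for example *Igf1r* with 35.0, 16.6 and 29.9 in VEC-positive against 3.06, 2.36 and 7.09 in VEC-null libraries. *Igf2bp2*, *M6pr* and *Grb14* did not pass.

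*Peg10* changed apart from the genes around it. *Peg10*, a retrotransposon-derived gene needed for the placenta, had 591, 545 and 608 normalized counts in VEC-positive libraries, against 1917, 1836 and 1898 in VEC-null libraries. Libraries of a group lay close together, and the change was 3.24-fold (log2 fold change -1.70, standard error 0.073, adjusted p = 2.27e-06 from limma). *Sgce*, epsilon-sarcoglycan, starts head to head with *Peg10* in the same methylated region and is also read from the paternal copy. It had 311, 300.03 and 277 in VEC-positive and 237, 253 and 318 in VEC-null libraries, with overlapping groups (log2 fold change 0.15, adjusted p = 0.41 from limma). *Ppp1r9a*, which encodes the actin-binding protein neurabin, did not pass either (log2 fold change -0.19, adjusted p = 0.235 from limma). *Asb4*, a substrate adaptor of a ubiquitin ligase, had 3.50, 5.84 and 5.65 normalized counts from 16 reads in VEC-positive libraries, against 0 in each VEC-null library. This is at least 5.21-fold higher with the floor of 3 reads over the group, and the gene was too low to be tested.

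Farther along the same stretch, *Pon3*, a paraoxonase of lipid metabolism, was nearly absent from VEC-positive cells, at 0, 0.97 and 1.61 normalized counts, against 223, 206 and 299 in VEC-null libraries. From 3 and 745 reads, the ratio of VEC-null over VEC-positive was 254 (95% counting interval 86.6 to 1235). The other 4 tested genes of the region did not pass.

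*Cdkn1c*, the cyclin-dependent kinase inhibitor p57, fell while the noncoding RNA of its domain did not pass. In the annotation it overlaps *Gm44732* by 625 exon bases on the opposite strand. *Cdkn1c* had 32.7, 31.2 and 40.3 normalized counts in VEC-positive libraries, against 76.5, 110.25 and 156 in VEC-null libraries. Every VEC-null library was above every VEC-positive one, with VEC-null 3 the highest. The log2 fold change was -1.64 (standard error 0.27, adjusted p = 0.00215 from limma), and -1.39 without VEC-null 3. *Kcnq1ot1*, the antisense RNA that silences the domain on the paternal copy, had 530, 484 and 647 in VEC-positive and 652, 858 and 412 in VEC-null libraries (log2 fold change -0.16, adjusted p = 0.643 from limma). Its VEC-null libraries spanned the VEC-positive ones. *Phlda2* and *Slc22a18*, maternal genes of the same domain, had 1 and 4 reads in all VEC-positive libraries and 1 and 8 in all VEC-null libraries.

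The genes around *Cdkn1c* went both ways. *Cd81*, a tetraspanin, was higher with 2022, 2099 and 2245 normalized counts in VEC-positive libraries, against 895, 860 and 1041 in VEC-null libraries (log2 fold change 1.19, adjusted p = 4.6e-05 from limma). *Osbpl5*, an oxysterol-binding protein, was higher by 0.50 on the log2 scale. *Tnfrsf22*, a receptor of the tumour necrosis factor family, fell by 0.73 and *Cars*, a transfer RNA synthetase, by 0.38 on the same scale. *Tnfrsf26*, a low-count receptor of that family named after its values were seen, fell by 2.68. *Kcnq1*, whose gene body holds the start of *Kcnq1ot1*, had 203 ± 8.4 and 198 ± 2.5 normalized counts in VEC-positive and VEC-null cells (SD, n = 3 each) and did not pass.

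The *Dlk1* to *Meg3* domain was read in part, and its VEC-null libraries differed widely. *Rian*, a maternal noncoding RNA that hosts small nucleolar RNAs, had 419.9, 412 and 455 normalized counts in VEC-positive and 1154, 599 and 434 in VEC-null libraries. The VEC-positive libraries were alike, while the VEC-null ones ran over a wide range that reached into them. The log2 fold change was -0.64 (standard error 0.30, adjusted p = 0.136 from limma), and adjusted p ran from 0.00674 to 0.271 over 17 alternatives. *Rtl1*, a retrotransposon-derived gene of placental vessels, had 23.3, 34.1 and 26.6 in VEC-positive and 56.6, 63.0 and 15.1 in VEC-null libraries (log2 fold change -0.44, adjusted p = 0.527 from limma). Without VEC-null 3, *Rian* was at -0.95 and *Rtl1* at -1.08 and both passed (adjusted p = 0.00674 and 0.00664 from limma). Without VEC-null 1 they were at -0.25 and -0.16, and without VEC-null 2 at -0.72 and -0.09, and in neither case did they pass. *Dlk1* with 2 reads in VEC-positive and 1 in VEC-null libraries, and *Meg3* with 1 and 1, were all but unread, and *Mirg*, a host of microRNAs, had 7 and 14 reads.

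Leaving out VEC-null 3 also changed the call of other genes. Without it, *Kcnq1ot1* fell by 0.44 (without VEC-null 2 it was at 0.08 and did not pass), and *Sgce*, *Ube3a* and *Impact* were higher by 0.27, 0.32 and 0.67 on the log2 scale, all past the threshold in limma. With VEC-null 3 left out, 18 of the 25 members passed, 6 higher and 12 lower, where 51% of all tested genes did.

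**Figure D3:**
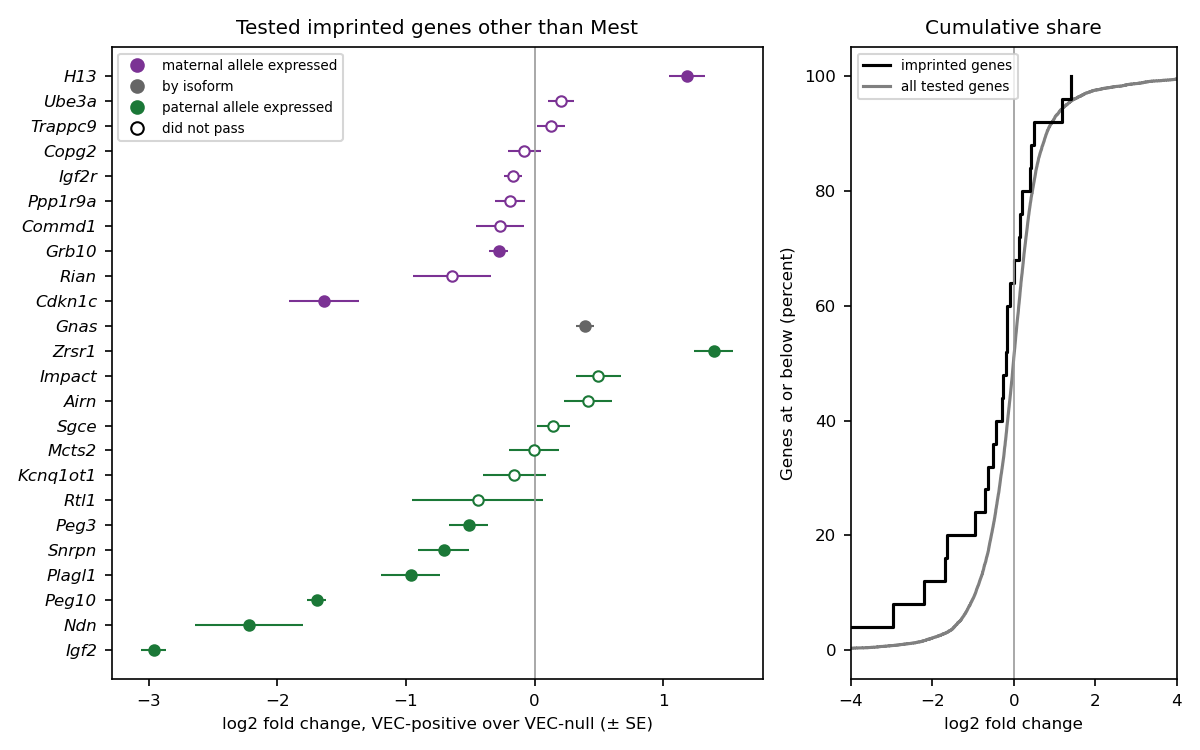
Left, fold change (log2, VEC-positive over VEC-null) with its standard error for the 24 tested imprinted genes other than *Mest*, by expressed copy, filled where the adjusted p is under 0.05. Right, cumulative percent of the 25 tested imprinted genes and of all 14032 tested genes by log2 fold change, cut at 4 on either side; the line of the imprinted genes lies to the left of that of all genes over much of its lower part.

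The paternal zinc finger genes *Plagl1* and *Peg3* were lower. *Plagl1*, a zinc finger factor that arrests growth, had 126, 133 and 128 normalized counts in VEC-positive libraries, against 341, 278 and 171 in VEC-null libraries (log2 fold change -0.97, standard error 0.23, adjusted p = 0.0127 from limma). VEC-positive libraries were nearly equal and VEC-null 3 was the closest to them, and without it the change was -1.25. *Peg3*, a zinc finger protein, had 59.5, 56.5 and 65.4 in VEC-positive and 90.3, 81.9 and 87.8 in VEC-null libraries. The groups did not overlap (log2 fold change -0.51, adjusted p = 0.0311 from limma), and the call was lost in 8 of 17 alternatives, over which adjusted p ran from 0.00375 to 0.122. *Usp29*, which shares the promoter region of *Peg3*, had 4 and 2 reads in VEC-positive and VEC-null libraries.

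In the region from *Ndn* to *Ube3a* on chromosome 7, both tested paternal genes of the list fell. The maternal *Ube3a* and the RNA *Snhg14*, which is not in the list, did not pass. *Ndn*, necdin, had 20.99, 10.7 and 6.46 normalized counts in VEC-positive libraries, against 41.3, 67.7 and 65.6 in VEC-null libraries (log2 fold change -2.22, standard error 0.42, adjusted p = 0.00428 from limma). *Snrpn*, a protein of small nuclear ribonucleoproteins, had 36.2, 51.6 and 44.4 in VEC-positive and 79.6, 70.1 and 66.5 in VEC-null libraries. Its groups did not overlap (log2 fold change -0.71, adjusted p = 0.0243 from limma), but the call was lost in 6 of 17 alternatives, with adjusted p up to 0.0865 and down to 0.00352. In the annotation *Snrpn* shares 216 exon bases with *Snurf* and 589 with *Gm38393* on its own strand, so reads could be split between them. *Peg12*, a paternal gene 112 kb from *Ndn* that was named after its values were seen, had 8.16, 11.7 and 22.6 in VEC-positive and 55.1, 77.2 and 53.2 in VEC-null libraries (log2 fold change -2.15, adjusted p = 0.00281 from limma). So *Ndn* and *Peg12* fell by like amounts at low counts. *Ube3a*, a ubiquitin ligase whose maternal expression is known from neurons, had 2629, 2542 and 2414 in VEC-positive and 2032, 2029 and 2554 in VEC-null libraries (log2 fold change 0.21, adjusted p = 0.157 from limma). *Snhg14*, the host RNA that runs antisense to *Ube3a* and overlaps 1803 of its exon bases, had means of 377 ± 55.1 in VEC-positive and 409 ± 33.5 in VEC-null cells (SD, n = 3 each) and did not pass.

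**Figure D4:**
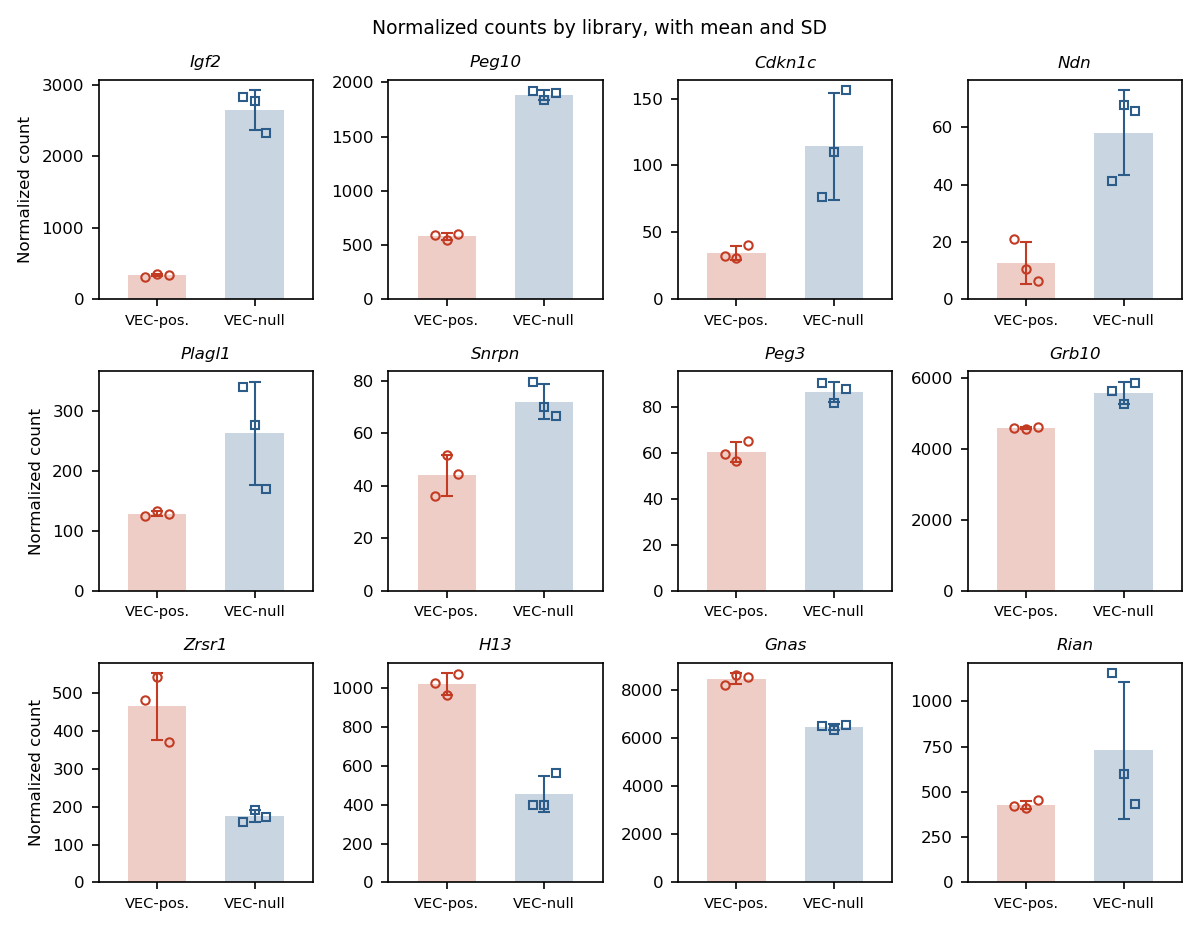
Normalized counts on linear axes from 0 for the 11 imprinted genes other than *Mest* that passed, and for *Rian*, which did not; bars are means, error bars SD (n = 3), circles the libraries labelled VEC-positive and squares those labelled VEC-null. The 2 groups do not overlap in the 11 genes, and overlap in *Rian*. The 11 genes are shown because they passed, which favours groups that do not overlap, and groups do not overlap in 50% of all tested genes.

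The 3 higher genes lay at other loci. *H13*, signal peptide peptidase, is cut short on the paternal copy by the retrogene *Mcts2* in its intron, and its full form comes from the maternal copy. *H13* had 1025, 963 and 1074 normalized counts in VEC-positive libraries, against 401, 399 and 562 in VEC-null libraries (log2 fold change 1.18, standard error 0.14, adjusted p = 0.000357 from limma). Every VEC-positive library was above every VEC-null one, and the change was 2.27-fold. *Mcts2* had 50.2, 73.1 and 69.4 in VEC-positive and 61.2, 68.5 and 61.2 in VEC-null libraries, and did not pass (log2 fold change -0.0038, adjusted p = 0.99 from limma). The annotated exons of the pair share no bases, and a gene count does not tell long from short forms of *H13*. Around them, *Id1*, an inhibitor of DNA binding, and *Bcl2l1*, an inhibitor of apoptosis, were higher by 0.98 and 0.54 on the log2 scale, and *Tpx2*, a spindle protein, fell by 1.13.

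*Zrsr1*, a splicing factor retrogene inside an intron of *Commd1*, is read from the paternal copy. It had 482, 543 and 370.4 normalized counts in VEC-positive libraries, against 159, 191 and 174 in VEC-null libraries, the highest fold among the tested members (log2 fold change 1.39, standard error 0.15, adjusted p = 0.000258 from limma). *Commd1*, a protein of copper handling and endosomal sorting, had 49.0, 54.6 and 42.0 in VEC-positive and 61.2, 59.9 and 54.1 in VEC-null libraries and did not pass (log2 fold change -0.27, adjusted p = 0.293 from limma). The pair overlaps by 412 exon bases on opposite strands, and the sources used here do not say whether counting used the strand. *Gnas*, the stimulatory G protein alpha subunit, was read at 757 per kb of exon in VEC-positive and 578 in VEC-null cells, above every other member in VEC-positive cells and below *Grb10* in VEC-null cells. It had 8205, 8629 and 8556 normalized counts in VEC-positive libraries, against 6521, 6319 and 6548 in VEC-null libraries, 1.31-fold higher (log2 fold change 0.39, adjusted p = 0.00344 from limma). Its exons overlap *Nespas* by 988 and *Gm20721* by 1469 bases on the opposite strand. At equal library totals the change of *Gnas* was 0.08 (adjusted p = 0.388 from limma), and p ran from 7.52e-07 to 0.388 over all alternatives. *Impact*, an inhibitor of the kinase GCN2, had 229.8, 229.9 and 236 in VEC-positive and 168, 126 and 208 in VEC-null libraries, which do not overlap, and did not pass (log2 fold change 0.50, adjusted p = 0.0592 from limma).

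By expressed copy, 8 of 14 tested paternal genes passed, 1 higher and 7 lower. Without *Mest*, which had to differ, 7 of 13 paternal genes passed, 1 higher and 6 lower. Of the tested maternal genes, 3 of 10 passed, 1 higher and 2 lower. Median log2 fold changes were -0.48 for the paternal genes, -0.44 without *Mest*, and -0.18 for the maternal genes. Over all tested genes 37.3% passed. At equal totals 8 of the 10 maternal genes passed, 1 higher and 7 lower, and 8 of the 14 paternal genes, likewise 1 higher and 7 lower, where 46.5% of all tested genes passed. With mitochondrial genes left out of these totals, 4 maternal and 8 paternal genes passed, beside 5217 of 14032 tested genes. The difference between the sets was not tested. All 12 genes that passed belonged to the 20 tested genes classed here as imprinted in many tissues. *Gnas* was put in this class although its imprint differs by isoform, which gene counts do not separate. *Mest* is also among the 12. None of the 5 tested genes classed as imprinted only in some tissues passed in limma, 0 at an unadjusted p under 0.05, 0 in edgeR and 0 in DESeq2. These genes (*Copg2*, *Ppp1r9a*, *Ube3a*, *Commd1*, *Trappc9*) had log2 fold changes of -0.27 to 0.21. None of their groups was set apart either, beside 50% of all tested genes. However, at equal totals *Copg2*, *Ppp1r9a* and *Commd1* passed as lower, and without VEC-null 3 *Ube3a* passed as higher. The difference between the 2 kinds of imprint was not tested. Of 11 tested genes that start in a germline methylated region, 1 was higher and 5 lower, with *Mest* among the lower. Of the 14 that do not, 2 were higher and 4 lower. Over all tested genes 20.9% were higher and 16.4% lower. The difference between these 2 sets was not tested.

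The members that were hardly read included genes of placenta, brain and progenitors. *Nnat*, neuronatin, had 6.998, 2.92 and 7.26 normalized counts in VEC-positive and 18.4, 9.45 and 6.21 in VEC-null libraries. From 18 and 31 reads, the ratio of VEC-positive over VEC-null was 0.567 (95% counting interval 0.299 to 1.05). *Peg13*, a noncoding RNA inside *Trappc9*, had 5 reads in VEC-positive and 2 in VEC-null libraries, and *Zdbf2*, a zinc finger protein, had 8 and 5. At this depth no difference was detectable for them. *Trappc9*, a subunit of a trafficking complex, was well read at 271 ± 13.2 and 249 ± 23.7 normalized counts in VEC-positive and VEC-null cells (SD, n = 3 each) and did not pass.

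Genes that write, read or erase imprints were mostly lower where they passed. Of 23 tested genes of that list, 3 were higher and 9 lower, where 20.9% of all tested genes were higher and 16.4% lower, with a median log2 fold change of -0.16. At equal totals 14 were lower, beside 35.3% of all tested genes. *Zfp57* had 161, 159 and 147 normalized counts in VEC-positive libraries, against 226, 291 and 309 in VEC-null libraries (log2 fold change -0.81, adjusted p = 0.00252 from limma). *Dnmt1* had 1137, 1139 and 1142 in VEC-positive and 2336, 1942 and 1536 in VEC-null libraries (log2 fold change -0.75, adjusted p = 0.00388 from limma). *Uhrf1*, which guides DNMT1 to newly copied DNA, and *Rif1*, a regulator of replication timing, fell by 0.75 and 0.60 on the log2 scale. *Dnmt3a*, a methyltransferase that sets new methylation, named after its values were seen, was higher by 0.55. *Smchd1* and *Arid4b* did not pass. Their part in the values of the imprinted genes was not tested.

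Of 42 further genes of imprinted domains, 21 were tested. Of these 5 were higher and 5 lower, where 20.9% of all tested genes were higher and 16.4% lower. The median log2 fold change was -0.15, beside -0.01 over all tested genes. *Pon3* in this list entered the test only through VEC-null libraries and so had to differ. Without it, 9 of 20 passed, 5 higher and 4 lower. Besides *Pon3*, *Cd81* and *Tnfrsf22*, the rule for named genes drew *Chrac1*, a chromatin accessibility factor beside *Trappc9*, which was higher by 0.60 on the log2 scale. *Nap1l4* and *Tnfrsf23* did not pass. All 155 genes within 250 kb of a member gave 74 tested genes, of which 14 were higher and 16 lower, 40.5% beside 37.3% of all tested genes. *Cep41*, *Pon3* and *Tnfrsf26* among them entered the test only through VEC-null libraries and so had to differ. Without these, 27 of 71 passed, 14 higher and 13 lower. Trophoblast markers, of which 6 of 10 had a row, summed to 35.1 to 101 in VEC-positive and 107 to 196 in VEC-null libraries, with *Tfap2c* and *Prl2c2* under 5 in every library. In this list *Eomes* fell by 2.28 on the log2 scale, with means of 11.5 in VEC-positive and 51.6 in VEC-null cells, and *Gcm1* did not pass. Mural and fibroblast markers, 10 of 12 with a row, summed to 283 to 327 in VEC-positive and 179 to 245 in VEC-null libraries. This sum holds opposite values, as *Pdgfrb* averaged 105 in VEC-positive and 1.10 in VEC-null cells, *Notch3* 27.6 and 2.74, and *Abcc9* 4.98 and 79.6. These 3 genes entered the test through 1 group only, and *Col1a2* did not pass. Of 10 blood cell markers 6 had a row. They summed to 214 to 246 in VEC-positive and 151 to 451 in VEC-null libraries, with *Ptprc* and *Spi1* under 5. *Runx1* was higher by 1.59 on the log2 scale, with means of 60.5 in VEC-positive and 19.6 in VEC-null cells, and *Itgam* did not pass. Of 12 tested endothelial markers, 7 were higher and 2 lower, where 20.9% of all tested genes were higher and 16.4% lower. At equal totals 5 were higher and 4 lower, where 11.2% and 35.3% of all tested genes were. *Erg*, *Tek* and *Kdr* were higher by 0.70, 0.62 and 0.57 on the log2 scale. *Cdh5* and *Robo4* fell by 0.96 and 0.55 on that scale, and *Fli1* and *Egfl7* did not pass. Their part in the values above was not tested.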

How the data were processed

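Total RNA of VEC-null and VEC-positive cells was sequenced in 3 libraries each, grouped by their labels. The submitters' processing notes name Trim Galore, TopHat2 2.1.1, DESeq2 1.14 and mm10. The sources used here do not name the counting program, its strand setting or the annotation. The signal values deposited by the authors are counts per gene, each scaled by the size factor of its library, and 100% of values were whole multiples of 1 read within 0.01. Reads include polymerase chain reaction duplicates, so intervals (95%) and floors (3 reads over a group) cover counting error only. Symbols and coordinates came from GENCODE M21 for 23908 of 24080 genes.

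Genes reaching 10 normalized counts in 3 or more libraries were compared as log2(value + 1), a pseudocount of 1, by a two-sided test in limma 3.58.1 (R 4.3.3) with a mean-variance trend. P-values were adjusted over these genes by the Benjamini-Hochberg method, with 0.05 as the threshold. The filter on low counts left out 41.7% of genes. The script was tested on simulated data. Members and lists were chosen with earlier results of these data known. All members were accounted for by name. Of each further list, up to 4 genes past the threshold with the largest change and a mean of at least 50, and up to 2 that did not pass, were named. Some other genes of these lists were named after their values were seen. As alternatives, the pseudocount was set to 0.5 and 5, the filter was dropped or raised to 50, and 3 other scalings were tried, along with limma without a trend, the count tests of edgeR 4.0.16 and of DESeq2 1.42.0 on whole reads, a replicate block, and leaving out each library. Figures were drawn with matplotlib 3.10.9 in Python 3.11.15.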

Additional observations from a re-analysis of the deposited data

How the results depend on the processing

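Of the 12 imprinted genes that passed, 8 (*Mest*, *Igf2*, *Cdkn1c*, *Peg10*, *Plagl1*, *Ndn*, *Zrsr1*, *H13*) stayed past the threshold with the same sign in each of the 17 alternatives that gave a value. The other 4 lost the call in some: *Peg3* in 8, *Snrpn* in 6, *Grb10* in 4 and *Gnas* in 1. No called gene changed sign. At equal library totals 1566 genes were higher and 4960 lower over all tested genes, 14 members were lower and 8 maternal genes passed. With mitochondrial genes left out of the totals, 2051 genes were higher and 3166 lower, 10 members were lower and 4 maternal genes passed. Leaving out each library in turn, 9 to 18 members passed, 3 to 6 higher and 6 to 12 lower, 2 to 5 of them maternal and 6 to 12 paternal. The largest of these counts came without VEC-null 3, where 6 members were higher and 5 maternal genes passed. Over all 14032 tested genes, 3696 passed without VEC-positive 1, where 9 members did. Without VEC-null 3, 7159 of all tested genes passed, 27.1% higher and 23.9% lower. edgeR called 12 members and DESeq2 11, where *Peg3* and *Snrpn* did not pass and *Rian* did (adjusted p = 0.0213 from DESeq2). Replicate numbers gave no sign of pairing, with correlations of 0.0763, -0.333 and -0.295 between same-numbered libraries. With the replicate number as a block 10 members passed, 3 higher and 7 lower, where 4144 of 14032 tested genes passed. In that fit *Peg3* (adjusted p = 0.0816) and *Snrpn* (0.0697) did not pass in limma. The cause of these changes was not tested. Members under 20 reads in a group allow no statement on small changes, and 3 libraries a group of 1 line and its derivative limit all results to these cultures.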

Other observations

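Further tested genes within 250 kb of imprinted genes passed, given here as values only. Around *Nnat*, the kinase gene *Src* fell by 0.90 on the log2 scale, with means of 142 in VEC-positive and 265 in VEC-null cells. *Ctnnbl1*, a spliceosome protein, was higher at 2883 in VEC-positive and 1599.9 in VEC-null cells, and *Blcap*, whose intron holds *Nnat*, was higher by 0.56. Around *Plagl1*, *Utrn*, which encodes utrophin of the membrane skeleton, was higher at 12345 in VEC-positive and 8578 in VEC-null cells, while the splicing subunit *Sf3b5* fell by 1.01 and the ribosome assembly gene *Ltv1* by 0.45. Around *Igf2r*, *Sod2*, the mitochondrial superoxide dismutase 237 kb away, was higher at 467 in VEC-positive and 213 in VEC-null cells. *Wtap*, 197 kb away, was higher by 0.35 on the log2 scale, and the other 4 tested genes of that stretch did not pass. Around *Gnas*, the cathepsin gene *Ctsz* was higher by 0.63 and the syntaxin gene *Stx16* by 0.41.

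Beside *Impact*, *Osbpl1a*, an oxysterol-binding protein, fell by 0.82, with means of 152 in VEC-positive and 271 in VEC-null cells. Around *Trappc9*, *Ptk2*, the focal adhesion kinase, was higher at 2665 in VEC-positive and 1707 in VEC-null cells. Around *Zdbf2*, *Eef1b2*, a translation elongation factor, and *Ndufs1*, a subunit of respiratory complex I, fell by 0.51 and 0.77. Near *Grb10*, *Fignl1* fell by 0.90, with means of 130.2 in VEC-positive and 244 in VEC-null cells. All genes given here as higher or lower passed in limma at an adjusted p under 0.05, at which 37.3% of all tested genes passed.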
